A study of Mus musculus with 6 samples.

Results

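The matrix metalloproteinases and their inhibitors were followed here as 10 genes picked by name from a table of 54532 genes, and all 10 were found. They were 6 metalloproteinase genes (Mmp2, Mmp8, Mmp12, Mmp13, Mmp14 and Mmp19), 3 genes of tissue inhibitors of metalloproteinases (Timp1, Timp2 and Timp3) and Ecm1, which encodes a secreted glycoprotein of the matrix. Messenger RNA had been sequenced from macrophages grown from the bone marrow of mice of the inbred strain C57BL/6J, with 3 control libraries and 3 libraries of cells given recombinant CCL3, a chemokine. The cells had been cultured for 7 days and CCL3 was then added for 3 days, although the wording leaves room for CCL3 in the first culture too. The sources used here do not say how control cells were kept over those days, what dose was used or whether libraries came from separate animals or cultures. The p-values therefore measure only the spread between these libraries, which may be technical.

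Matrix metalloproteinases are zinc-dependent enzymes that cut collagens, elastin and other proteins of the extracellular matrix. They are made as inactive proenzymes, most of them secreted and a few, such as the Mmp14 product, held in the cell membrane. Tissue inhibitors bind the active site and block it, and the balance between enzyme and inhibitor sets how much matrix is cut. Macrophages use these enzymes to move through tissue, to remodel it and to release signalling proteins bound to it.

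Levels are given as FPKM, sequenced fragments scaled by gene length and a divisor for each library, so levels of different genes can be set side by side. The sources used here do not give this divisor, and it was not the plain fragment total. Fragment totals were 0.851 to 0.895 of it in control and 1.05 to 1.20 of it with CCL3. Fragments recovered from the table came to between 17399194 and 18609737 per library. All 9 of the macrophage markers examined passed the filter on low values (mean FPKM of 1 or more across the 6 libraries), and Cd68 stood at 1227 ± 19.4 FPKM in control and 1783 ± 79.9 FPKM with CCL3 (mean ± SD, n = 3 per group). Of 9218 genes past that filter, 2990 differed between the groups at an adjusted p of 0.05 (limma on log2(FPKM + 1)), which is 32.4% of them, with 18.0% higher and 14.5% lower with CCL3. The split between directions depends on scaling: 55.4% of calls were higher in the deposited FPKM, 20.7% when libraries were scaled by their fragment totals and 11.1% as TPM, which fixes the sum of length-corrected values. As TPM 508 genes were called higher and 4072 lower of 9309 tested, and by fragment totals 801 and 3075 of 9281. Counts in lists of genes under those scalings stand beside these. The median log2 fold change over all genes is 0.0066 in the deposited FPKM, -0.28 by totals and -0.43 as TPM, and changes under those scalings stand relative to these shifts. On the first principal component control replicate 3 scored -16.3, apart from control replicates 1 and 2 at -33.3 and -33.2. CCL3 replicate 3 scored 40.5 against 20.9 and 21.4 in the other CCL3 libraries.

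Messenger RNA of Timp1, Mmp14, Ecm1 and Timp2 was higher with CCL3, and that of Mmp8 was lower. Timp1 rose most, from 2.71 ± 1.27 to 12.5 ± 3.06 FPKM (± SD over 3 libraries a group), and Mmp14 rose from 4.15 ± 2.63 to 14.7 ± 1.69 FPKM. Ecm1 and Timp2, which were already abundant in control cells, rose 1.96-fold and 1.53-fold by their mean FPKM. Mmp12 and Mmp19 did not pass the test, and Mmp2, Mmp13 and Timp3 were below the filter and are given as values. Of the 10 genes 7 passed the filter, each with a mean above 1 FPKM in both groups, and 4 were called higher and 1 lower. In those 5 genes the control and CCL3 libraries did not overlap, a state that 24.6% of all tested genes showed in the higher direction and 24.0% in the lower (48.6% in either). The genes were chosen with earlier results of these data known, so nothing is read from their share of calls.

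**Figure D1:**
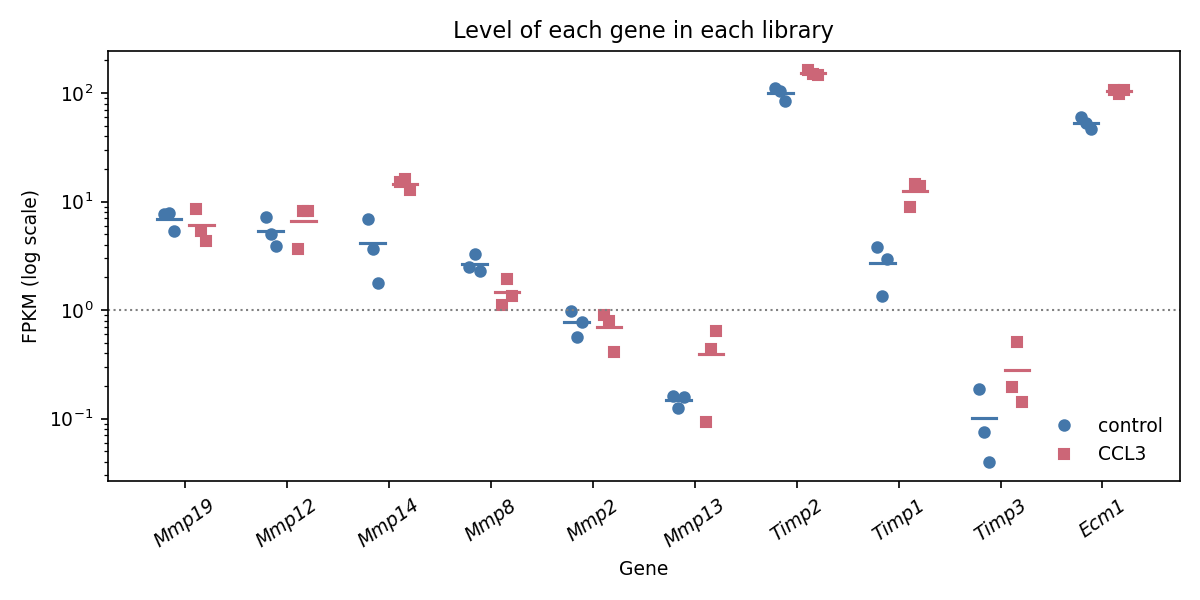
FPKM of the 10 genes in each library, on a log axis, with control libraries as circles, CCL3 libraries as squares, short lines at the mean of the 3 libraries of a group and a dotted line at 1 FPKM. The CCL3 libraries lie above all control libraries for Timp1, Timp2, Mmp14 and Ecm1, and below them for Mmp8.

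Timp1 encodes a secreted inhibitor whose transcription is known to respond to growth factors and cytokines. Its record in the table is ENSMUSG00000001131 on chromosome X, 20870166 to 20874735 (mm10), on the plus strand. Timp1 had 3.85, 1.34 and 2.95 FPKM in control replicates 1 to 3 and 8.96, 14.6 and 13.8 FPKM in CCL3 replicates 1 to 3. Every CCL3 library was above every control library, and control replicate 2 was the lowest of the 6. The log2 fold change was 1.90 ± 0.29 SE (95% interval 1.23 to 2.56, adjusted p = 0.00438, limma), the 23rd highest among the 9218 genes. These levels rest on 25 to 71 fragments per control library and 129 to 223 per CCL3 library. The gene lies inside Syn1, which runs on the opposite strand and stood at 0.861 FPKM in control and 2.21 FPKM with CCL3, and the annotated exons of the pair share 0 bases. The sources used here do not say whether the counting used strand.

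Timp2 encodes an inhibitor that also takes part in activation of the Mmp2 proenzyme at the cell surface, in a complex with the Mmp14 product. Its record is ENSMUSG00000017466 on chromosome 11, 118301069 to 118355740, on the minus strand. Timp2 had 110.6, 105.4 and 85.4 FPKM in control replicates 1 to 3 and 162.2, 150.2 and 148 FPKM in CCL3 replicates 1 to 3. The groups did not overlap, and the change was modest beside the level, with a log2 fold change of 0.61 ± 0.14 SE (95% interval 0.28 to 0.95, adjusted p = 0.0159, limma). This call depended on scaling: the log2 fold change was 0.082 as TPM (adjusted p = 0.703), 0.26 by fragment totals (adjusted p = 0.182) and 0.18 after quantile normalization (adjusted p = 0.426). The call was also lost without control replicate 2 (adjusted p = 0.0600) and after removal of a GC trend (adjusted p = 0.0501), and over 17 alternatives adjusted p ranged from 0.00592 to 0.703 in limma.

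Timp3 encodes an inhibitor that stays bound to the matrix and that also blocks several ADAM proteases. Its record is ENSMUSG00000020044 on chromosome 10, 86300372 to 86349506, on the plus strand. Timp3 had 0.189, 0.0759 and 0.0402 FPKM in control replicates 1 to 3 and 0.197, 0.508 and 0.144 FPKM in CCL3 replicates 1 to 3. The groups overlapped, and fragments numbered 7 to 71 per library. Fitted without the filter it had an adjusted p of 0.311 (limma). Timp3 shares 1733 exonic bases with Syn3 on the opposite strand, and Syn3 had at most 2 fragments in a library.

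Mmp14 encodes a membrane-bound collagenase that activates the Mmp2 proenzyme and is known for its part in cell invasion. Its record is ENSMUSG00000000957 on chromosome 14, 54431612 to 54445364, on the plus strand. Mmp14 had 6.98, 3.68 and 1.78 FPKM in control replicates 1 to 3 and 15.1, 16.1 and 12.8 FPKM in CCL3 replicates 1 to 3. The groups did not overlap, and the control libraries were spread more widely than the CCL3 libraries, with control replicate 3 the lowest. The log2 fold change was 1.73 ± 0.34 SE (95% interval 0.96 to 2.51, adjusted p = 0.00861, limma), the 41st highest among the 9218 genes. Without control replicate 3 it was 1.35, and without control replicate 1 it was 2.11.

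Mmp2 encodes gelatinase A, which cuts denatured collagen and collagen of basement membranes, and its record is ENSMUSG00000031740 on chromosome 8, 92827291 to 92853420. It had 0.985, 0.564 and 0.778 FPKM in control replicates 1 to 3 and 0.896, 0.794 and 0.409 FPKM in CCL3 replicates 1 to 3. The groups overlapped almost throughout, with 20 to 69 fragments in a library, and without the filter the adjusted p was 0.808 (limma). Mmp2 messenger RNA was thus low in both groups.

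Mmp8, the collagenase known from neutrophil granules, was the gene of the 10 that fell. Its record is ENSMUSG00000005800 on chromosome 9, 7558456 to 7568485. Mmp8 had 2.48, 3.29 and 2.30 FPKM in control replicates 1 to 3 and 1.12, 1.92 and 1.36 FPKM in CCL3 replicates 1 to 3. The groups did not overlap, but the gap between control replicate 3 and CCL3 replicate 2 was narrow. The log2 fold change was -0.58 ± 0.18 SE (95% interval -0.99 to -0.18, adjusted p = 0.0379, limma), on 44 to 168 fragments per library. The call held in 9 of 17 alternatives, with adjusted p from 0.00494 to 0.160, and leaving out 1 library ended it in 4 cases. These were control replicate 1 (adjusted p = 0.0846, limma), control replicate 2 (0.160), CCL3 replicate 1 (0.0913) and CCL3 replicate 3 (0.0968).

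Mmp12 encodes macrophage elastase, the metalloproteinase most closely tied to macrophages, and its record is ENSMUSG00000049723 on chromosome 9, 7344381 to 7369499. It had 7.20, 4.99 and 3.88 FPKM in control replicates 1 to 3 and 3.67, 8.25 and 8.17 FPKM in CCL3 replicates 1 to 3. CCL3 replicate 1 was the lowest of all 6 libraries and the other CCL3 libraries were the highest. The log2 fold change was 0.24 ± 0.30 SE (95% interval -0.45 to 0.94, adjusted p = 0.556, limma), and its sign turned as TPM (-0.22), by fragment totals (-0.060) and without both replicates numbered 3 (-0.092). Mmp13, collagenase 3, had 0.162, 0.124 and 0.158 FPKM in control replicates 1 to 3 and 0.0923, 0.436 and 0.645 FPKM in CCL3 replicates 1 to 3. Its record is ENSMUSG00000050578 on chromosome 9, 7272514 to 7283331. CCL3 replicate 1 was again the lowest library and the others the highest, on 4 to 25 fragments, and without the filter the adjusted p was 0.336 (limma).

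Mmp19 encodes a secreted metalloproteinase of basement membrane proteins, and its record is ENSMUSG00000025355 on chromosome 10, 128790910 to 128800824. It had 7.63, 7.89 and 5.33 FPKM in control replicates 1 to 3 and 8.50, 5.34 and 4.35 FPKM in CCL3 replicates 1 to 3. CCL3 replicate 1 was the highest library here, and the groups overlapped. The log2 fold change was -0.20 ± 0.24 SE (95% interval -0.74 to 0.35, adjusted p = 0.543, limma), and 0.028 after removal of a GC trend. Mmp19 shares 789 of its 3533 exonic bases with Tmem198b on the opposite strand, which stood at 3.94 FPKM in control and 4.56 FPKM with CCL3, so part of its fragments cannot be told apart from those of Tmem198b if strand was not used.

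Ecm1 encodes extracellular matrix protein 1, whose human product has been shown to bind MMP9 and to lower its activity. Its record is ENSMUSG00000028108 on chromosome 3, 95734147 to 95739569, on the minus strand. Ecm1 had 59.9, 52.7 and 46.6 FPKM in control replicates 1 to 3 and 107.7, 98.4 and 105.7 FPKM in CCL3 replicates 1 to 3. The groups were far apart beside their spread, and the log2 fold change was 0.96 ± 0.14 SE (95% interval 0.64 to 1.28, adjusted p = 0.00387, limma). The size moved with scaling, to 0.43 with TPM (adjusted p = 0.0414), 0.58 after quantile normalization (adjusted p = 0.0312) and 0.50 after removal of a GC trend (adjusted p = 0.0482). Timp1, Mmp14 and Ecm1 each kept the call in 17 of 17 alternatives.

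**Figure D2:**
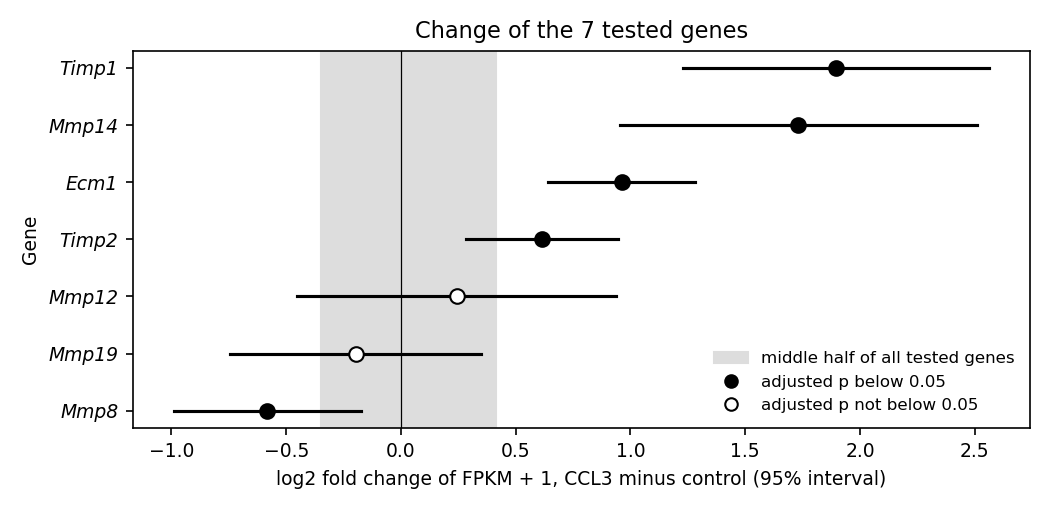
log2 fold change of FPKM + 1, CCL3 minus control, with 95% intervals from limma, for the 7 genes past the filter, as filled points where the adjusted p was below 0.05. The grey band runs from the lower to the upper quartile of all 9218 tested genes, -0.35 to 0.41, and Timp1, Mmp14 and Ecm1 have intervals wholly to its right.

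Windows before the transcription starts of the 5 called genes, and of Mmp13 as a textbook example of an AP-1 site near a metalloproteinase start, are shown so that the letters near each start can be read. They are from RefSeq (GRCm38.p6), and the set of RefSeq windows used here held 8 of the 10 genes with 9 starts. Each shows the 250 bases before the start RefSeq gives, which need not be the start in the authors' annotation. Capitals mark TGANTCA (N is any base), the letters searched for AP-1 (Fos and Jun factors). They also mark AGGAAG or CTTCCT on the other strand, letters bound by ETS factors and known as PEA3.
Timp1 (chrX:20869916-20870165, plus strand): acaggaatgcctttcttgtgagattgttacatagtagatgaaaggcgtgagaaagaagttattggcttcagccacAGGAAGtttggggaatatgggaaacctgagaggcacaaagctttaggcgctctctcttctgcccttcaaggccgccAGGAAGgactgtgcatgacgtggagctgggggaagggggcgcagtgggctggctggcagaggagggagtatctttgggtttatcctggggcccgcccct
Timp2 (chr11:118355412-118355661, minus strand): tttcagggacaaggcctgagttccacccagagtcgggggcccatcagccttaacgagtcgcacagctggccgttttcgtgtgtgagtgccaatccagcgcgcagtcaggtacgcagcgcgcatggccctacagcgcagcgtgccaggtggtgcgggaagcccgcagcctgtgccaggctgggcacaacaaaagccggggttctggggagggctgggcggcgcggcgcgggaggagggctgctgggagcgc
Mmp14 (chr14:54431348-54431597, plus strand): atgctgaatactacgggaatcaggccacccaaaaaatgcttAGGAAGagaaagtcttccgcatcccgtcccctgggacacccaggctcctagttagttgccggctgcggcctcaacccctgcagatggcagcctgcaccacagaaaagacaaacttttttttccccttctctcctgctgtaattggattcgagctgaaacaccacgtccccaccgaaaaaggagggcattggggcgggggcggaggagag
Ecm1 (chr3:95739570-95739819, minus strand): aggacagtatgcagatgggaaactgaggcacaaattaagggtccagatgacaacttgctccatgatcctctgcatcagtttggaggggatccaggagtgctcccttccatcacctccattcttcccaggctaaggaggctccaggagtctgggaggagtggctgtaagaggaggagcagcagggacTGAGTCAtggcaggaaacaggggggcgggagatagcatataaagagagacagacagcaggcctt
Mmp8 (chr9:7558179-7558428, plus strand): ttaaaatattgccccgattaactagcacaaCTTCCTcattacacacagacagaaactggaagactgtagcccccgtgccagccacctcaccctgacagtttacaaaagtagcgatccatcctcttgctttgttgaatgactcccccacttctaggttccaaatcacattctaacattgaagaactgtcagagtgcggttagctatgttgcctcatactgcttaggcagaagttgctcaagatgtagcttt
Mmp13 (chr9:7272264-7272513, plus strand): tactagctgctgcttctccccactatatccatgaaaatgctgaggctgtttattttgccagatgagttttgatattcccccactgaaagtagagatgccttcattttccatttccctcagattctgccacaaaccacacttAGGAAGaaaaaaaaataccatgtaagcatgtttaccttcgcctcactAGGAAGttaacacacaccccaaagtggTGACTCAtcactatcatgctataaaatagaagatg

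The AP-1 letters were found in 3 of the 9 windows of 300 bases (250 before and 50 after the start), against 7.81% of 32851 windows in the RefSeq table. They began 64 bases before the start of Ecm1, 35 bases before that of Mmp13 and 44 bases before 1 of the 2 starts of Mmp12. These matches read TGAGTCA or TGACTCA, while the share over all windows counts any base at N. The PEA3 letters were found in 6 of the 9 windows, against 35.3% of all windows, and 3 times in that of Timp1, at 175 and 99 bases before the start and 41 bases after it. The motifs did not overlap each other in these windows, and both strands were read. Of the 4 genes that rose, the AP-1 letters were in the window of Ecm1, the PEA3 letters in those of Timp1 and Mmp14, and neither in that of Timp2, which had 68.7% G and C against a median of 52.7% over all windows. Mmp8, which fell, and Timp3 each held PEA3 letters once. A match describes the letters and is no evidence of a bound site.

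The inhibitors were far more abundant as messenger RNA than the enzymes in both groups, through Timp2. In control cells the order by mean FPKM was Timp2 (100.5), Ecm1 (53.1), Mmp19 (6.95), Mmp12 (5.36), Mmp14 (4.15), Timp1 (2.71), Mmp8 (2.69), Mmp2 (0.775), Mmp13 (0.148) and Timp3 (0.102). From Mmp19 to Mmp8 each neighbour in this order overlapped the next in its 3 libraries, while Timp2, Ecm1 and Mmp2 were separate from their neighbours. With CCL3 the order was Timp2 (153.5), Ecm1 (103.9), Mmp14 (14.7), Timp1 (12.5), Mmp12 (6.70), Mmp19 (6.06), Mmp8 (1.47), Mmp2 (0.700), Mmp13 (0.391) and Timp3 (0.283). There Mmp14 and Timp1 overlapped each other and lay above Mmp12 in every library. Mmp14 made up 27.4%, 17.9% and 12.5% of the summed FPKM of the 6 metalloproteinase genes in control replicates 1 to 3, and 51.4%, 49.1% and 46.2% in CCL3 replicates 1 to 3. Mmp8 made up 9.75% to 16.2% of that sum in control and 3.81% to 5.84% with CCL3.

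**Figure D3:**
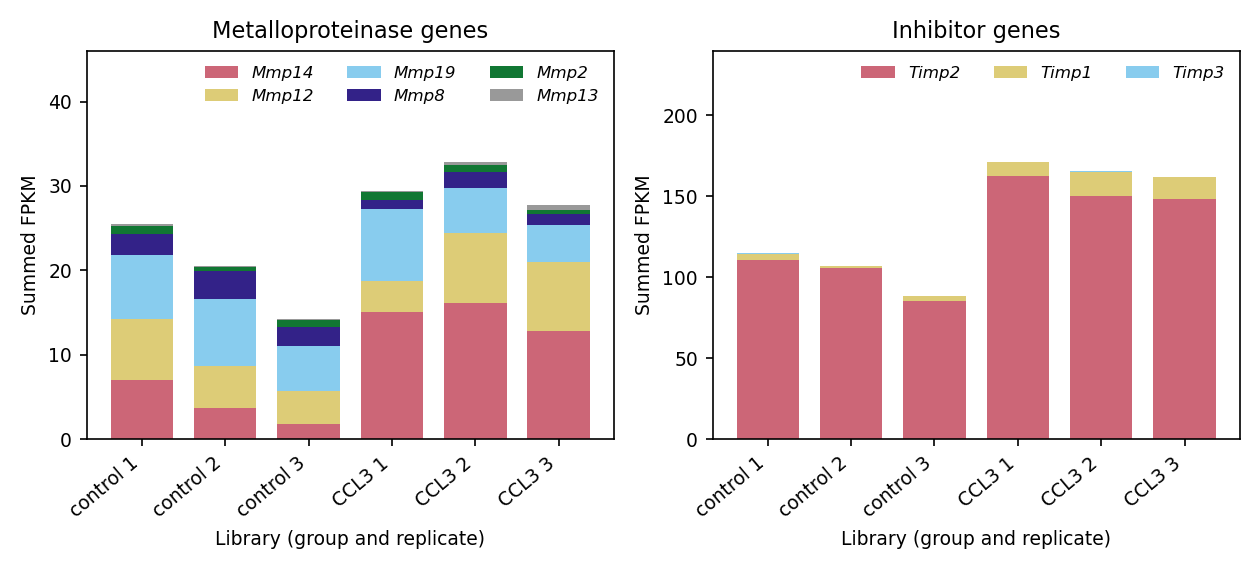
Stacked FPKM of the 6 metalloproteinase genes (left) and the 3 inhibitor genes (right) in each library. Mmp14 is the main part of the taller metalloproteinase bars with CCL3, and Timp2 makes up between 90.8% and 98.7% of the inhibitor sum in every library.

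Ratios between genes of the same library do not change when a library is scaled by a single factor, as with TPM or fragment totals. Quantile normalization and removal of a length or GC trend can move them. The ratios in the deposited FPKM were compared with an exact permutation test, two-sided, with p adjusted over 8 ratios, 7 of them between pairs of genes. With 3 against 3 libraries the smallest p it allows is 0.1, so none could pass 0.05. The ratio of Mmp14 to Timp2 was 0.0631, 0.0349 and 0.0209 in control replicates 1 to 3 and 0.0930, 0.107 and 0.0865 in CCL3 replicates 1 to 3. It was higher in every CCL3 library, with a log2 difference of 1.41 ± 0.47 SE (exact p = 0.1, adjusted p = 0.267). The ratio of Timp1 to Timp2 also did not overlap, at 0.0348, 0.0127 and 0.0346 in control replicates 1 to 3 and 0.0552, 0.0973 and 0.0933 in CCL3 replicates 1 to 3, with a log2 difference of 1.68 ± 0.55 SE (exact p = 0.1, adjusted p = 0.267). The ratio of Mmp12 to Timp1 went the other way, from 1.87, 3.73 and 1.32 in control to 0.410, 0.565 and 0.592 with CCL3, with a log2 difference of -2.02 ± 0.47 SE (exact p = 0.1, adjusted p = 0.267). Thus Mmp12 exceeded Timp1 in each control library and lay below it in each CCL3 library.

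The ratios of Mmp2 to Timp2, Mmp13 to Timp1, Mmp14 to Timp3 and Timp3 to Timp2 overlapped between the groups, with exact permutation p of 0.2, 0.2, 0.4 and 0.4. The summed metalloproteinases were 0.222, 0.192 and 0.161 of the summed inhibitors in control replicates 1 to 3 and 0.171, 0.199 and 0.171 in CCL3 replicates 1 to 3. Here the groups overlapped. In the deposited FPKM the sums themselves were, for metalloproteinases, 20.1 ± 5.62 and 30.0 ± 2.62 FPKM and, for inhibitors, 103.3 ± 13.5 and 166.3 ± 4.69 FPKM in control and with CCL3 (mean ± SD, n = 3 per group). Unlike their ratio these sums depend on the factor by which each library is scaled, and the log2 fold change of Timp2, most of the inhibitor sum, was 0.082 as TPM.

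**Figure D4:**
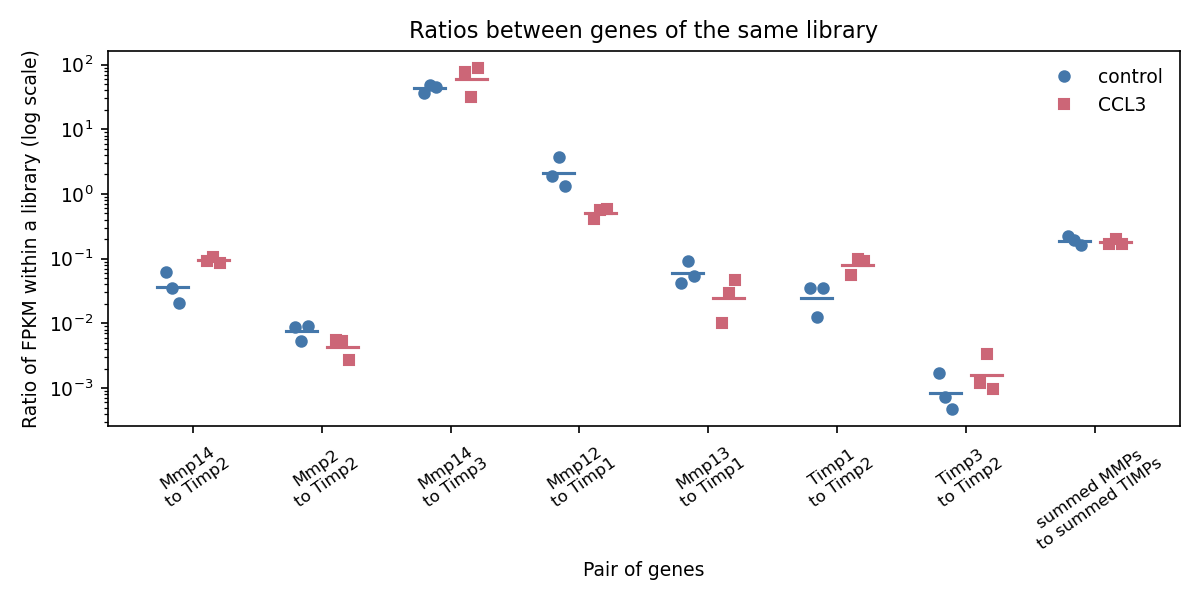
Ratio of FPKM between pairs of genes within each library, on a log axis, with control libraries as circles, CCL3 libraries as squares and lines at the geometric mean of a group. Mmp14 to Timp2 and Timp1 to Timp2 are higher with CCL3 and Mmp12 to Timp1 is lower, while summed metalloproteinases to summed inhibitors overlap between 0.161 and 0.222.

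Mmp8, Mmp12 and Mmp13 belong to a cluster of 10 metalloproteinase genes on mouse chromosome 9, between 7272514 and 7699585. Within it only Mmp12 and Mmp8 passed the filter, and Mmp1a, Mmp1b, Mmp7 and Mmp20 were listed at 0 in all 6 libraries. Mmp27 stood at 0.488 ± 0.103 FPKM in control and 0.524 ± 0.243 FPKM with CCL3. Neighbours in the cluster thus did not share a level, with Mmp12 far above Mmp3 and Mmp10, whose means were under 0.05 FPKM.

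The rest of the family was scarcely expressed. Of 19 other genes, 17 metalloproteinase genes, Timp4 and the membrane inhibitor gene Reck, 0 passed the filter and 7 were listed at 0 in every library. Summed over all 19, they came to between 1.99 and 2.55 FPKM in control and between 2.34 and 2.79 FPKM with CCL3. Mmp9, gelatinase B, had 0.544, 0.591 and 0.198 FPKM in control replicates 1 to 3 and 0.871, 1.04 and 0.838 FPKM in CCL3 replicates 1 to 3. Its CCL3 libraries lay above its control libraries, and without the filter its adjusted p was 0.119 (limma).

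Among 32 genes of activation, surface partners and clearance, 17 passed the filter, 2 rose and 3 fell (11.76% and 17.65% of the 17). Here and in the lists below, such counts stand beside 18.0% higher and 14.5% lower over all tested genes. As TPM 0 rose and 7 fell, and by fragment totals 0 and 4. The median log2 fold change in this list was -0.012, beside 0.0066 for all tested genes. Bsg, which encodes basigin, an inducer of metalloproteinases, rose from 229 ± 31.9 to 371 ± 61.4 FPKM (log2 fold change 0.69, adjusted p = 0.0197, limma), and the tetraspanin gene Cd151 rose by 0.58 on the log2 scale (adjusted p = 0.0225, limma). The plasminogen receptor gene Plgrkt had a log2 fold change of -1.10 (adjusted p = 0.0137, limma) and the proprotein convertase gene Pcsk7 of -0.58 (adjusted p = 0.0370, limma). The calls of Bsg, Cd151, Plgrkt and Pcsk7 held in 9, 10, 15 and 10 of 17 alternatives.

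Of 26 genes of the related ADAM and ADAMTS proteases 8 passed the filter, 1 rose and 0 fell in limma. At an unadjusted p of 0.05 it was 1 and 1, with voom 1 and 0, and under either other scaling 0 and 1. Their median log2 fold change was 0.24. Adam15, a membrane protease with an integrin-binding domain, rose from 64.4 ± 11.2 to 117.0 ± 26.9 FPKM (log2 fold change 0.84, adjusted p = 0.0172, limma), a call that held in 10 of 17 alternatives.

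Genes of matrix proteins, the substrates and scaffold of these enzymes, were tested for 17 of 54 listed, of which 6 rose and 2 fell. As TPM 2 rose and 3 fell, by fragment totals 3 and 3, and after removal of a GC trend 2 and 4. The median log2 fold change of these 17 was 0.20 in the deposited FPKM and -0.088 as TPM. Mfge8, a secreted protein that bridges dying cells to phagocytes, rose from 101.4 ± 39.8 to 253.3 ± 55.9 FPKM (log2 fold change 1.35, adjusted p = 0.00977, limma). The basement membrane collagen gene Col18a1 rose by 1.27 and the small proteoglycan gene Bgn by 0.94 on the log2 scale, and the proteoglycan gene Srgn had a log2 fold change of -0.94. Of the 6 that rose, Fn1 and Col1a2 had control means under the filter (0.969 and 0.955 FPKM), a point noticed after their values were seen. The calls held in 17, 16, 12 and 12 of 17 alternatives for Mfge8, Col18a1, Bgn and Srgn.

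The AP-1 and ETS factor genes, whose binding letters were searched above, were mixed, with 6 risen and 6 fallen of 25 tested. As TPM 1 rose and 14 fell, and by fragment totals 2 and 11. Over all genes 508 rose and 4072 fell of 9309 tested as TPM, and 801 and 3075 of 9281 by fragment totals. The median log2 fold change of the factor genes was -0.17 in the deposited FPKM. The ETS genes Fli1 and Ets2 had log2 fold changes of -1.23 and -1.15, and the AP-1 gene Fos went from 37.2 ± 6.83 to 17.5 ± 3.94 FPKM (log2 fold change -1.05, adjusted p = 0.00801, limma). The AP-1 family gene Batf3 rose by 0.88 on the log2 scale. Calls held in 17, 11, 17 and 16 of 17 alternatives for Fli1, Ets2, Fos and Batf3. Of the 6 that fell, Elk4 passed the filter through its control libraries alone (mean 1.38 FPKM in control and 0.753 FPKM with CCL3).

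Markers of other cells that make these proteins were examined beside them, since in bulk RNA fewer cells of a type and less RNA per cell cannot be told apart. Of 10 fibroblast and stromal markers 2 passed the filter and both rose, Col1a1 from 1.80 ± 0.675 to 3.96 ± 1.18 FPKM and Col1a2 from 0.955 ± 0.400 to 1.95 ± 0.391 FPKM, each a call that held in 8 of 17 alternatives and under neither of the other scalings. Both are also in the matrix list, and the control mean of Col1a2 was itself under the filter. The 10 markers summed to between 2.52 and 4.99 FPKM in control and between 5.92 and 9.27 FPKM with CCL3. Lum was at 0 in all libraries, Dcn was at 0 in control and at most 0.140 FPKM with CCL3, and Pdgfra was at most 0.134 FPKM. Cxcl12 had a lower mean with CCL3 (0.142 FPKM in control and 0.134 FPKM with CCL3, with overlap). The other markers below the filter, apart from Lum, had higher means. Col1a1, Col1a2 and the sum of the list moved in the same direction as Timp1, Timp2, Mmp14 and Ecm1. The part of the stromal markers in those results was not tested.

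Of 12 neutrophil markers 4 passed the filter, 1 rose and 0 fell, also at an unadjusted p of 0.05 and with voom. S100a8 rose from 9.22 ± 4.09 to 22.9 ± 7.01 FPKM, a call that held in 13 of 17 alternatives. Its partner S100a9 stood at 15.6 ± 5.39 FPKM in control and 11.9 ± 2.66 FPKM with CCL3 and was not called (log2 fold change -0.33, adjusted p = 0.375, limma). The list summed to between 30.7 and 65.4 FPKM in control and between 60.5 and 72.8 FPKM with CCL3, and Ly6g was at 0 in all libraries. Below the filter the CCL3 libraries of Mpo and Elane lay above their control libraries. Mpo stood at 0.060 ± 0.068 FPKM in control and 0.474 ± 0.034 FPKM with CCL3, and Elane at 0.177 ± 0.028 and 0.83 ± 0.59 FPKM. Camp, Lcn2 and Cxcr2 had higher means with CCL3, and Ltf and Retnlg lower ones, each with overlap. Of 9 osteoclast markers 4 passed and 2 rose, the acid phosphatase gene Acp5 from 8.72 ± 0.989 to 33.4 ± 5.84 FPKM and the proton pump gene Atp6v0d2 from 5.57 ± 3.34 to 25.4 ± 9.16 FPKM, both called in 17 of 17 alternatives. This list, which holds Mmp9, summed to between 28.5 and 38.4 FPKM in control and between 75.1 and 90.8 FPKM with CCL3, with the calcitonin receptor gene Calcr at 0 in all libraries. Ctsk (log2 fold change 0.65, adjusted p = 0.0831, limma) and Nfatc1 (log2 fold change -0.16, adjusted p = 0.523, limma) were not called. Below the filter Ocstamp, Dcstamp and Mmp9 had higher means with CCL3, and Oscar a lower one. The sum of the list, which rose mainly through Acp5 and Atp6v0d2, moved with Mmp14 and Timp1. Its part in those results was not tested.

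Of 6 endothelial markers 2 passed the filter and 1 fell, Vwf, with a log2 fold change of -1.05, and the list summed to between 17.0 and 19.4 FPKM in control and between 7.92 and 10.6 FPKM with CCL3. Of 9 dendritic cell markers 3 passed the filter and rose, Fscn1, Ccr7 and Batf3, the last also among the AP-1 genes. Ccr7 passed through its CCL3 libraries alone (control mean 0.402 FPKM), and the Fscn1 call held in 10 of 17 alternatives. As TPM 1 of 2 tested rose, by fragment totals 2 of 2, and after removal of a GC trend 1 of 3. Among those below the filter Cd209a stood lower with CCL3, at 0.519 ± 0.299 FPKM in control and 0.0252 ± 0.0219 FPKM with CCL3, and Flt3, Zbtb46, Xcr1 and Clec9a also had lower means. The list came to 3.38 to 4.79 FPKM in control and 8.12 to 9.997 FPKM with CCL3. Of 8 lymphocyte markers 1 was tested and rose, Cd4, a call that held in 4 of 17 alternatives, and of 7 mast cell and basophil markers 0 passed the filter, with Kit at 0.197 ± 0.0271 and 0.0957 ± 0.0498 FPKM and sums of 0.167 to 0.346 FPKM in control and 0.169 to 0.344 FPKM with CCL3. Among the 9 macrophage markers 2 rose and 2 fell, in TPM units 0 and 5, and by fragment totals 1 and 3. Mrc1, the mannose receptor, rose by 0.84 on the log2 scale, besides Cd68, while the endotoxin co-receptor gene Cd14 and the lysozyme gene Lyz2 had log2 fold changes of -0.94 and -0.91. The calls of Cd14, Mrc1, Lyz2 and Cd68 held in 17, 16, 10 and 10 of 17 alternatives, and Cd68 had a log2 fold change of 0.18 by fragment totals (adjusted p = 0.256, limma) and an adjusted p of 0.9998 as TPM.

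**Figure D5:**
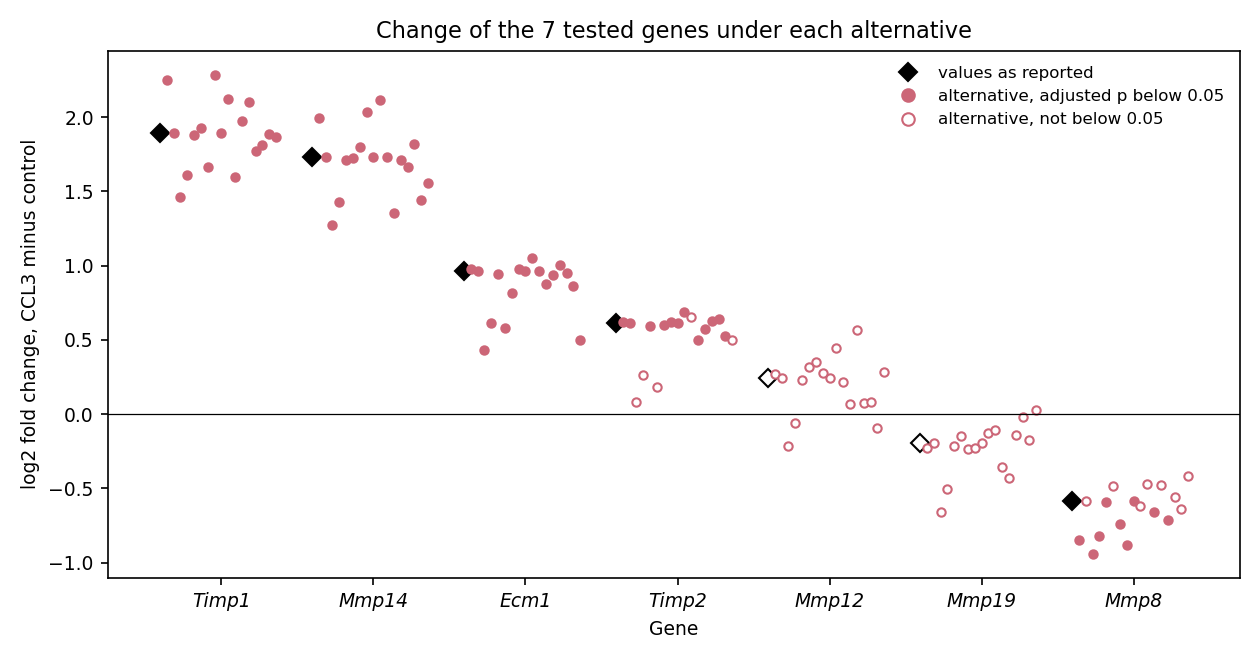
log2 fold change, CCL3 minus control, of the 7 tested genes as reported (black diamonds) and under 17 alternatives (circles), with symbols filled where the adjusted p was below 0.05, side by side for each gene. Timp1, Mmp14 and Ecm1 stay filled throughout, Timp2 in 12 and Mmp8 in 9 alternatives, and Mmp12 and Mmp19 in none.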

How the data were processed

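Per the labels' protocols, total RNA from a column kit went into SMARTer library preparation for messenger RNA. The authors deposited 1 table of FPKM values, with 1 column per library. Per the submitters' processing notes the build was mm10, and the coordinates of the 10 genes equal those of GENCODE M21. Aligner, counter, use of strand, handling of shared reads and FPKM divisor: not given in the sources used here.

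Multiplied by gene length, 100% of the FPKM values fell on whole steps of a library (tolerance 0.02), and those steps were taken as fragments. Their sum was 0.851 to 0.895 of the divisor in control and 1.05 to 1.20 of it with CCL3. Chi-square per degree of freedom between replicates was 19.6 to 89.7, so none were merged.

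Genes whose mean FPKM reached 1 were tested as log2(FPKM + 1), a scale that understates changes of low genes, in limma 3.58.1 (R 4.3.3) with a variance trend, two-sided, with Benjamini-Hochberg adjustment over all 9218 genes and a threshold of 0.05. The fit was run on simulated data with independent libraries and the same dispersion for all genes. That setting lacks the differences between replicates seen here, so it checks the code and not the calls. Alternatives were TPM, fragment totals, median-ratio and quantile scaling, no filter, a pseudocount of 0.1, limma voom on the fragments, removal of a length or GC trend, the replicate number as a block, and leaving out each library or both replicates numbered 3. The planned search of protein motifs was not run. The members and lists were chosen with earlier results of these data known. All members were named, and from each other list up to 4 called genes, or up to 2 given as values. Lum, Dcn, Pdgfra, Fn1, S100a9, Cd209a, Flt3, Zbtb46, Xcr1, Clec9a, Ly6g, Calcr, Syn1, Syn3, Tmem198b and the chromosome 9 neighbours were named after their values were seen, or for overlap. Ctsk, Nfatc1, Ocstamp, Dcstamp, Oscar and Elk4 were also named after their values were seen. So were the endothelial markers Kdr, Tek, Pecam1, Emcn and Cdh5. The neutrophil markers Mpo, Elane, Camp, Lcn2, Cxcr2, Ltf and Retnlg and the stromal marker Cxcl12 were named in the same way.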

Additional observations from a re-analysis of the deposited data

How the results depend on the processing

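The count of genes past the threshold was 2990, 4580 as TPM, and 1128 to 3142 when 1 library was left out. Of the 10 genes 4 were called higher, 3 to 4 when 1 library was left out. The count called lower was 1, and 0 to 1 when 1 library was left out. It was 0 with no filter, after quantile normalization, without both replicates numbered 3 and after removal of the GC trend, an alternative chosen after seeing the data (limma). At an unadjusted p of 0.05 it was 1 in each of these 4 settings, and 1 with voom at the adjusted threshold. The log2 fold change turned sign for Mmp12 as TPM (-0.22), by fragment totals (-0.060) and without both replicates numbered 3 (-0.092), for Mmp19 after removal of the GC trend (0.028), and for Cd68 after quantile normalization (-0.14). The untested Mmp2 went from -0.068 to 0.016 without control replicate 1, 0.062 without CCL3 replicate 3 and 0.066 without both replicates numbered 3, within 1 SD. The cause was not tested. The sources used here do not say whether the replicate numbers pair the samples. Deviations of same-numbered libraries from their group means correlated at -0.06, 0.39 and 0.50. Control replicates 2 and 3 correlated best with the CCL3 library of the same number, and control replicate 1 with CCL3 replicate 2. Deviations within a group are tied to each other, so these correlations cannot decide on pairing. With the numbers as a block 3897 genes passed, and the calls of the 10 genes did not change. Over the 143 values of the 10 genes under alternatives, 126 kept direction and side of the threshold or, for untested genes, moved by less than 1 SD, 13 lost the call and 4 values of tested genes turned sign. The 8 within-library ratios kept their direction with 0.1 FPKM added, and without 1 library each, except summed metalloproteinases to summed inhibitors, whose log2 difference was -0.078, and -0.20 to 0.033 with 1 library left out. At 4 to 71 fragments per library, counting error limits Mmp13, Mmp2 and Timp3.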

Other observations

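The protein-coding genes whose log2(FPKM + 1) followed a member most closely over the 6 libraries were also listed, as a description without a test. Genes that differ between the groups correlate for that reason alone, and the libraries share their scaling. Timp1 was most like Tnfsf12 (Pearson r = 0.994), Tnfrsf23 (r = 0.989) and the AP-1 gene Jund (r = 0.983). Mmp14 was most like Slc25a26 (r = 0.997), the lysosomal ganglioside activator gene Gm2a (r = 0.993) and Cyp4f13 (r = 0.992). Timp2 was most like the triglyceride lipase gene Pnpla2 (r = 0.998) and Mmp8 was most like Mrps9 (r = 0.995). Mmp12, which did not separate the groups, was most like Cab39l (r = 0.985), and Mmp19 most like the prion protein gene Prnp (r = 0.998).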
